A study of Homo sapiens with 4 samples.

Results

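The replication-dependent histone genes are the clustered copies of the H1, H2A, H2B, H3 and H4 genes. They were taken here as the protein-coding genes of the GENCODE annotation on hg19 whose symbols begin with H1-, H2AC, H2BC, H3C or H4C and which lie on chromosome 6 between 26 and 28 Mb or on chromosome 1 within the last 1 Mb before position 150 Mb. This gave 59 of the 19229 protein-coding genes on chromosomes 1 to 22. A loop belonged to the set when any annotated transcript start of such a gene lay in either of its 5 kb anchors, which held for 89 of the 27289 loops in the WT list and 119 of the 25621 in the STAG2-KD list. The rule used gene names and positions, not loop values.

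The loops came from H3K27ac HiChIP, an assay that ligates chromatin segments lying close together in the nucleus and then pulls down the ligated segments bearing H3K27ac, the acetyl mark on lysine 27 of histone H3 that active promoters and enhancers carry. The cells were of the human melanoma line M14, into which a short hairpin RNA (shRNA) against the cohesin subunit STAG2 had been placed under doxycycline control. Both groups carried the shRNA. The STAG2-KD cells received doxycycline for 5 days and the WT cells were cultured for 5 days without it, so the knockdown and the drug cannot be told apart. The labels named 2 samples per group, and each group was represented by 1 loop list, which was filed under replicate 1. The description of every sample carries the word merged without saying what was merged, so a list may stand for 1 sample or for both. The lists gave anchor positions without read numbers, so the depth behind a loop was unknown, no difference had a replicate check and no test between WT and STAG2-KD was possible. The values of both lists are therefore given side by side. The intervals in parentheses are exact Clopper-Pearson 95% intervals. They cover the counting of loops alone, and loops that share a bin are not independent. The lists hold no expression values, so the knockdown itself was not checked here. Of 8 melanocyte marker genes, 7 had a WT loop and 6 a STAG2-KD loop, against 39.1% and 36.8% of all protein-coding genes. SOX10 had 4 loops in each list, MITF 7 in WT and 2 in STAG2-KD, MLANA 3 and 5, DCT 3 and 0, and TYR none. Of 25 autosomal genes for histone expression, which do not mark melanocytes, 76.0% had a WT loop and 72.0% a STAG2-KD loop. These counts therefore do not identify the cell type.

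Core histones H2A, H2B, H3 and H4 form the protein spool of the nucleosome, and the linker histone H1 binds the DNA between nucleosomes. Proliferating cells make most of their histones in S phase from clustered, intronless genes whose mRNAs end in a conserved stem-loop instead of a poly(A) tail. These genes are transcribed and their mRNAs processed at the histone locus body, a nuclear body organised by NPAT, and SLBP binds the stem-loop. The genes are present in many near-identical copies, so sequence reads from them can be hard to place.

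The class of the genes was checked on the reference sequence. A perfect hairpin with a stem of 6 bases that opens with GG and a loop of 4 bases stood within 150 bases after an annotated stop codon in 57 of the 59 genes, against 0.845% of 19053 other protein-coding genes. H2AC11 and H2AC15 held no such match in this window. The hairpin began a median of 36 bases after the stop codon. The form found in 34 of the genes is shown with its stem in capitals, followed by the form found in 8 genes.
most frequent form: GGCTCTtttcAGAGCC
second form: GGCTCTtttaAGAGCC

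Many H2A and H2B genes sit head to head and share the DNA between their starts. Within the set, 8 such pairs had starts at most 300 bases apart. The stretches between the starts are shown for the H2A and H2B genes at 2 bins with many contacts between clusters. They are also shown for 2 pairs of the same clusters whose start bins had no loop in either list. They are read from the plus strand of GRCh37, and capitals mark the octamer ATTTGCAT, the box CCAAT and the TATA motif TATAAA on either strand, some of which overlap.
H2BC12/H2AC12, chr6:27114635-27114884: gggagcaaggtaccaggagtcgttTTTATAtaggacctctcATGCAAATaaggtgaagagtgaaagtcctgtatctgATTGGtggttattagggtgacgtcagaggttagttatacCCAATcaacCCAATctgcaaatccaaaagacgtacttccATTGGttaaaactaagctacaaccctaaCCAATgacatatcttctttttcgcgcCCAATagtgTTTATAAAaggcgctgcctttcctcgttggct
H2BC13/H2AC13, chr6:27775708-27775950: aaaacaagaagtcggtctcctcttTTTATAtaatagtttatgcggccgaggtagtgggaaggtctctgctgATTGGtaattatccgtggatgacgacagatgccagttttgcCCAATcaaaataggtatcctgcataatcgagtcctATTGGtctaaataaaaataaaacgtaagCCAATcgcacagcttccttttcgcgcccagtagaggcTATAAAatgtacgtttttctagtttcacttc
H2BC11/H2AC11, chr6:27100575-27100821: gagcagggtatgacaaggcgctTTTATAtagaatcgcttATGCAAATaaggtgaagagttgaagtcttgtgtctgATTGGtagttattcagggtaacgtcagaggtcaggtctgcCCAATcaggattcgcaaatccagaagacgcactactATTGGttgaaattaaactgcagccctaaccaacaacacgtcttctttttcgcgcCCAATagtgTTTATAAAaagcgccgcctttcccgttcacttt
H2AC14/H2BC14, chr6:27782556-27782799: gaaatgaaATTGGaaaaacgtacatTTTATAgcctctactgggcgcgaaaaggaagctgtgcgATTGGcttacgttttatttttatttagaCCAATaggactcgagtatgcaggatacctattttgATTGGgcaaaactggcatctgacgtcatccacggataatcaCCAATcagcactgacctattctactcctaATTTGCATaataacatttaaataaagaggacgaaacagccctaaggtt
The stretch between H2BC12 and H2AC12 held 1 octamer and 6 CCAAT boxes, and the bin of both starts had 9 loops in WT and 8 in STAG2-KD. That between H2BC13 and H2AC13 held no exact octamer and 4 CCAAT boxes, and its bin had 14 and 16 loops. The stretch between H2BC11 and H2AC11 held 1 octamer and 4 CCAAT boxes. That between H2AC14 and H2BC14 held 1 octamer and 5 CCAAT boxes, and both start bins had 0 loops. These counts depend on the 5 kb bin edges. The bin just before that of H2BC11 and H2AC11 (chr6:27095001-27100000) had 13 WT and 16 STAG2-KD loops. The bin of H2AC14 and H2BC14 directly follows that of H2AC13, H2BC13 and H3C10. All 8 pairs held between 3 and 6 CCAAT boxes. The octamer stood in 4 of the 5 pairs with loops and in 2 of the 3 without. In the RefSeq promoter table (GRCh38.p14, 250 bases before to 50 after a start), 54 members had an entry. The octamer stood in 22 of them (40.7%, against 1.80% of 27305 promoters), CCAAT in 46 (85.2%, against 35.7%) and TATAAA in 36 (66.7%, against 11.95%). The families differed in these letters. The octamer was present in 10 of 13 H2A, 11 of 14 H2B, 1 of 11 H3 and 0 of 6 H1 and 10 H4 promoters, and CCAAT was present in every H1, H2A, H2B and H3 promoter of the table but in 2 of 10 H4 promoters.

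The 59 genes fell into 4 clusters when neighbouring gene starts more than 100 kb apart were separated. Cluster 1, on chromosome 1, held 10 genes over 75.6 kb (chr1:149783928-149859515). Cluster 2 held 28 genes over 267.9 kb (chr6:26018015-26285866), including 5 of the 6 H1 genes. Cluster 3 held 5 genes over 14.3 kb (chr6:27100574-27114885), and cluster 4 held 16 genes over 85.5 kb (chr6:27775707-27861203), including H1-5. Gaps of 814.7 kb and 660.8 kb separated clusters 2 and 3 and clusters 3 and 4. The transcript starts filled 43 bins of 5 kb, of which 16 held 2 or more members. Genes of 1 bin have the same loops in these lists and are named together. The lists hold contacts within a chromosome, so contacts between clusters 1 and 2 to 4 could not be seen.

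Loops were frequent at these starts in both states. Of the 43 histone bins, 22 were WT anchors (51.2%, 35.5 to 66.7) and 29 were STAG2-KD anchors (67.4%, 51.5 to 80.9). Over all bins with a protein-coding start, 15.2% were WT anchors and 14.4% STAG2-KD anchors. These sets are unlike, since the starts of all 19229 protein-coding genes filled 51158 bins and those of the 59 histone genes filled 43. Counted by gene the contrast was smaller. A WT loop was held by 57.6% of members against 39.1% of all protein-coding genes, and a STAG2-KD loop by 69.5% against 36.8%. The histone bins that were anchors held 6.18 ± 3.92 loops each in WT (mean ± SD over 22 bins) and 6.24 ± 4.91 in STAG2-KD (over 29 bins). Protein-coding anchor bins held 2.62 and 2.61. At least 10 loops met at 22.7% of the WT histone anchors and 27.6% of the STAG2-KD ones, against 2.30% and 2.20% of protein-coding anchors. The higher loop number per histone anchor was thus present in both states and its mean moved little between them, whereas 7 more bins were anchors in STAG2-KD.

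**Figure D1:**
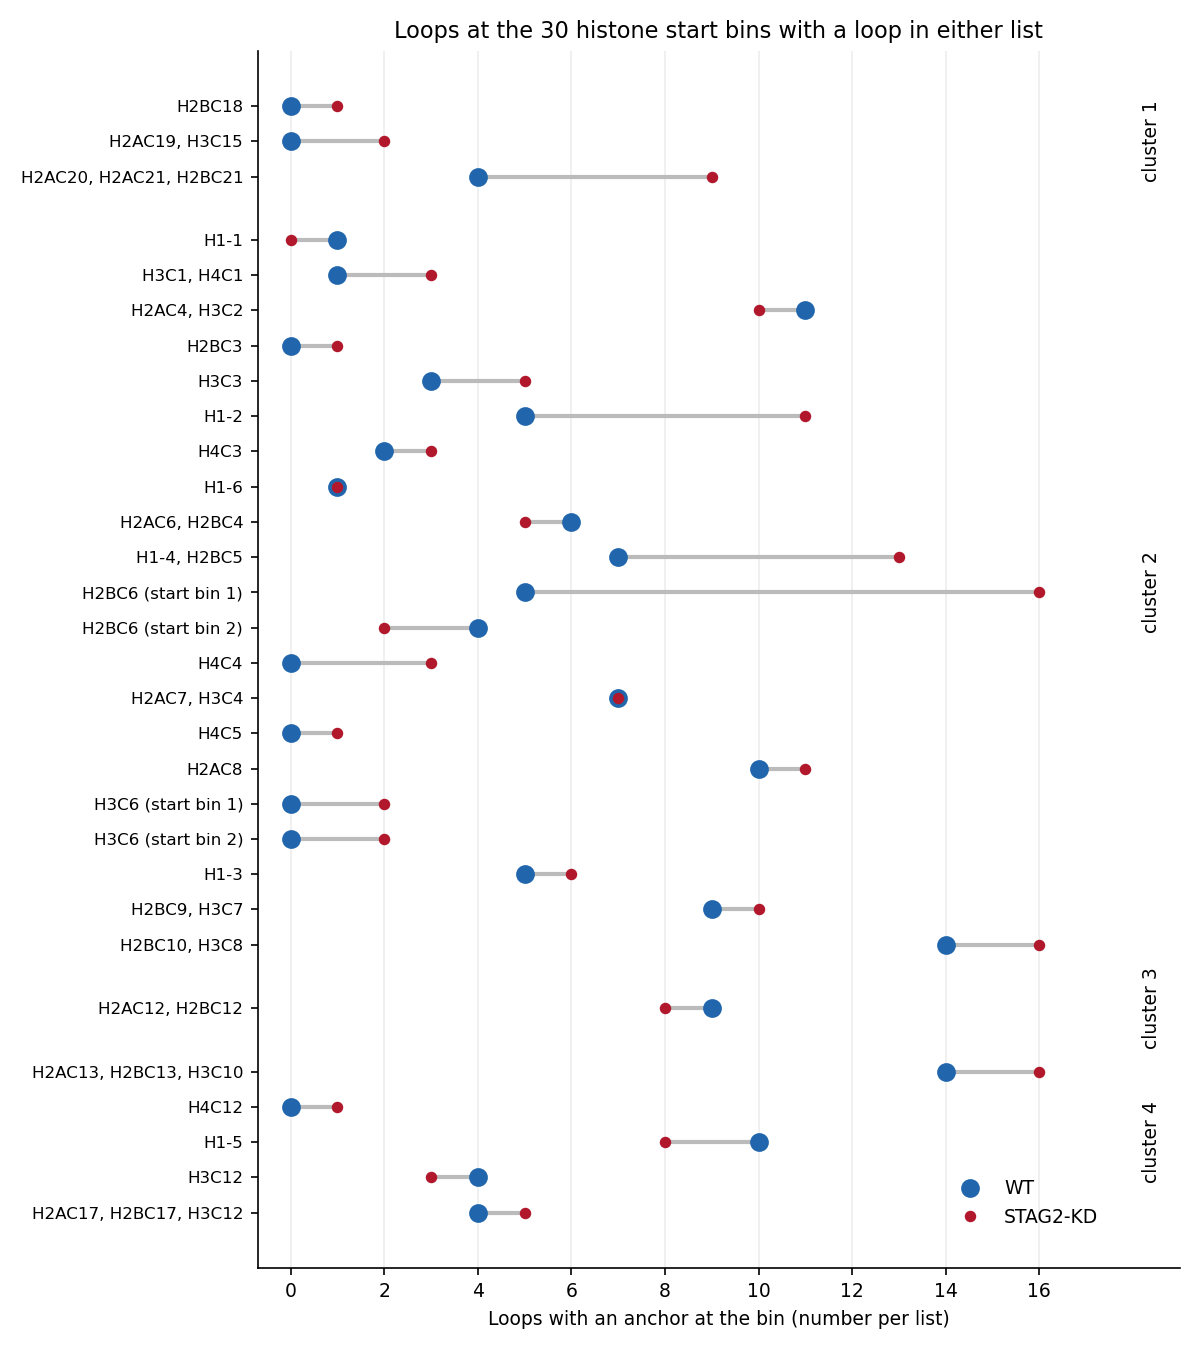
Each row is a 5 kb bin with a histone gene start, in genome order by cluster, and the horizontal axis is the number of loops with an anchor there in WT (large blue points) and STAG2-KD (small red points). The 13 bins without a loop in either list are left out. The widest gap is at the first start bin of H2BC6, with 5 loops in WT and 16 in STAG2-KD.

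By gene, 34 of 59 members had a WT loop and 41 had a STAG2-KD loop, against 39.1% and 36.8% of all protein-coding genes. More loops in STAG2-KD than in WT were held by 30 members and more in WT by 8, and the other members had equal numbers. Over all protein-coding genes 15.3% had more loops in STAG2-KD and 19.4% had more in WT. The members share 43 bins and are not independent of each other. The bins themselves divided into 21 with more loops in STAG2-KD, 7 with more in WT and 15 with equal numbers, 13 of which had none in either list. The same division over all bins with a protein-coding start was not counted.

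The linker histone genes were all in use as anchors. All 6 H1 genes had a loop in at least 1 list. H1-5 had 10 WT and 8 STAG2-KD loops, and H1-3 had 5 and 6. H1-2 had 5 loops in WT and 11 in STAG2-KD, and H1-4, whose bin it shares with H2BC5, had 7 and 13. H1-6, the testis-specific H1, had 1 loop in each list, and H1-1 had 1 WT loop and no STAG2-KD loop.

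Among the core histones, 10 of 14 H2A, 11 of 14 H2B, 10 of 13 H3 and 5 of 12 H4 genes had a loop in either list. H4 genes stood out for few loops. The median H4 gene had 0 loops in both lists, with a highest value of 2 in WT and 3 in STAG2-KD, against medians of 4 and 6 for H2A, 5 and 6.5 for H2B and 3 and 5 for H3. The H4 genes with a WT loop were H4C1, which shares a bin with H3C1, and H4C3. In STAG2-KD, H4C4 had 3 loops and H4C5 and H4C12 had 1 each. Of the 10 bins that held H4 genes alone, 1 was a WT anchor (10.0%, 0.253 to 44.5) and 4 were STAG2-KD anchors (40.0%, 12.2 to 73.8). Of the 33 other histone bins, 21 were WT anchors (63.6%, 45.1 to 79.6) and 25 STAG2-KD anchors (75.8%, 57.7 to 88.9). The intervals of H4 bins and other bins lay barely apart in WT (upper bound 44.5 against lower bound 45.1) and overlapped in STAG2-KD. Some H4 bins lie in repeated sequence and others largely do not, as given below. Whether the lower H4 counts are a trait of the family or come with repetition was not tested.

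**Figure D2:**
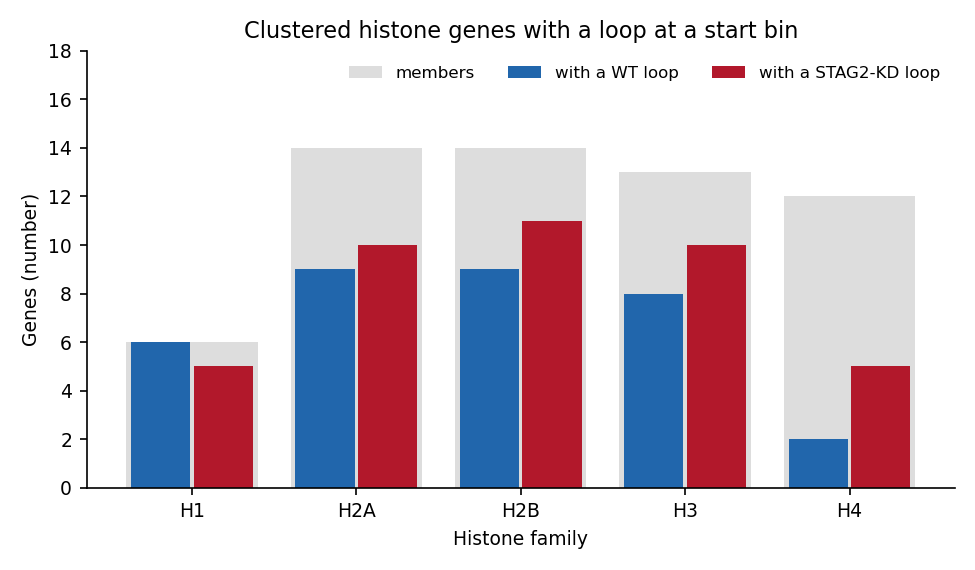
Grey bars give the number of clustered genes in each histone family, blue bars those with a WT loop at a start bin and red bars those with a STAG2-KD loop. All 6 H1 genes had a WT loop, whereas 2 of 12 H4 genes did.

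No loop was listed in either state at the start bins of 17 members, though some of these bins adjoin bins with many loops. The members were H3C13, H3C14, H4C14 and H4C15 in cluster 1, H4C7 and H4C8 in cluster 2, H2AC11, H2BC11 and H4C9 in cluster 3, and H2AC14, H2AC15, H2AC16, H2BC14, H2BC15, H3C11, H4C11 and H4C13 in cluster 4. Sequence repetition differed between clusters. The share of 32-base stretches of a bin that occur more than once in the genome had a median of 78.1% in cluster 1, 8.40% in cluster 2, 11.8% in cluster 3 and 12.8% in cluster 4. The bins of H4C14, H3C14 and H4C15 were at 100%, with 0 loops. Those of H4C11 and H4C12 were at 38.6% and 36.1%, and the other bins with H4 genes alone lay between 6.96% and 13.9%. The only cluster 1 bin with a WT loop, that of H2AC20, H2AC21 and H2BC21, was at 9.70%. Over all histone bins the median was 9.86% with loops and 17.5% without. The bins had a median of 12 MboI sites, the enzyme used to cut the chromatin, against 13 in all protein-coding bins, and a median GC content of 44.04% against 45.6%. Whether reads from repeated sequence limited the loops at these bins was not tested.

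Histone gene starts gave 89 loops in WT and 119 in STAG2-KD, while the whole list was smaller in STAG2-KD. Both lists held 44 of them, which was 49.4% of the WT loops (38.7 to 60.2, against 38.0% over all WT loops) and 37.0% of the STAG2-KD loops (28.3 to 46.3, against 40.5% over all STAG2-KD loops). The remainder were 45 WT-only and 75 STAG2-KD-only loops. STAG2-KD-only loops thus made up 62.5% (53.2 to 71.2) of the histone loops found in 1 list alone, against 47.4% of all such loops and 43.8% (41.5 to 46.2) on chromosome 6 without the histone loops. The loops of the same 26 to 28 Mb window that touched no histone start numbered 30 in WT and 41 in STAG2-KD, and 65.7% (47.8 to 80.9) of those in 1 list alone were STAG2-KD-only. The higher number in STAG2-KD was therefore also seen at other anchors of this window. Its interval included that of the histone loops, so the 2 sets were not distinguishable by it. In other tandem gene families, described below, the share was 62.5% for HOX genes (43.7 to 78.9) and 66.7% for S100 genes (34.9 to 90.1). For ZNF genes it was 42.1% (32.6 to 52.0). A lean to STAG2-KD was thus not particular to histone genes.

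**Figure D3:**
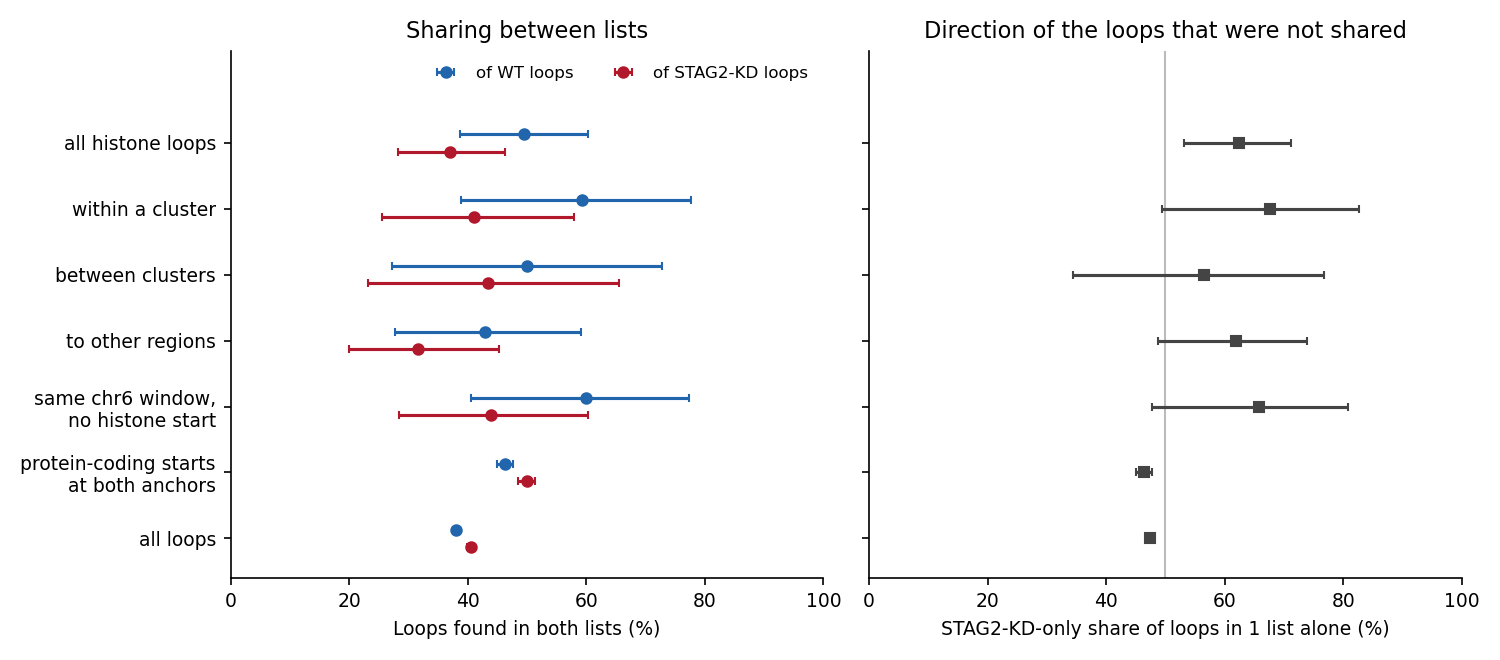
The left panel gives the percent of loops found in both lists, as a share of the WT list's loops (blue) or of the STAG2-KD list's (red), and the right panel gives the STAG2-KD-only percent of the loops found in 1 list alone. Bars are exact 95% intervals of counting. All histone loops lie at 62.5% on the right and all loops of the lists at 47.4%.

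The added loops lay mainly in cluster 2. Its starts had 66 loops in WT and 93 in STAG2-KD, and 30 of these were the same loops. Cluster 1 had 4 WT loops and 10 STAG2-KD loops, and all 4 were shared. Cluster 3 had 9 and 8 loops with 5 shared, and cluster 4 had 30 and 31 with 15 shared. A loop between clusters is counted in both. Clusters 3 and 4 thus had nearly the same number of loops in both states, but not the same loops, since 4 loops of cluster 3 were WT-only and 3 STAG2-KD-only, and for cluster 4 these were 15 and 16.

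At 4 bins the lists differed by at least 4 loops, and all 4 had more in STAG2-KD. Over all bins with a protein-coding start, 0.369% had at least 4 more in STAG2-KD and 0.428% at least 4 more in WT. Most of those bins were not anchors, and protein-coding anchors held fewer loops than histone anchors, as given above. Differences of this size thus had less room there. The first start bin of H2BC6 (chr6:26170001-26175000), where its long transcript begins, had 5 WT and 16 STAG2-KD loops with 2 shared. In WT all 5 ran to bins with no histone start. In STAG2-KD the bin was joined within the cluster to H3C1 and H4C1, H2AC4 and H3C2, H3C3, H1-2, H2AC8, and H2BC9 and H3C7, over the gap to H2AC13, H2BC13 and H3C10 in cluster 4, and, among other regions, to the starts of HFE, an iron regulator of the HLA class I type, HMGN4, a nucleosome-binding protein, and ABT1, a basal transcription factor activator. The other start bin of H2BC6, at its short intronless transcript, had 4 WT and 2 STAG2-KD loops. Leaving out the first start bin, a check added after its values were seen, left 84 WT and 110 STAG2-KD histone loops.

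The bin of H1-2 (chr6:26055001-26060000) had 5 WT loops, and in STAG2-KD it had 11, of which 4 were shared. All 5 WT loops stayed within cluster 2. The STAG2-KD loops that were not in WT ran to the starts of H4C3, H2AC6 and H2BC4, H1-4 and H2BC5, H2BC6, and H2BC10 and H3C8, to HFE and to 1 bin without a protein-coding start. The bin of H1-4 and H2BC5 (chr6:26155001-26160000) had 7 and 13 loops and only 2 of them were shared, so that 5 were WT-only and 11 STAG2-KD-only. It had no contact with another cluster in WT and 2 in STAG2-KD, with H2AC13, H2BC13 and H3C10 at 1620 kb and with H1-5 at 1680 kb. The bin of H2AC20, H2AC21 and H2BC21 (chr1:149855001-149860000), which also holds a start of BOLA1, had 4 WT and 9 STAG2-KD loops, and all 4 WT loops were kept. The 5 STAG2-KD-only loops included those to H2BC18 at 75 kb, to H2AC19 and H3C15 at 35 kb and to ANP32E, a histone chaperone, at 350 kb.

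The bins with at least 9 loops in WT differed by at most 2 loops between the lists, whereas the first start bin of H2BC6, with 16, was among the highest in STAG2-KD alone. The bin of H2BC10 and H3C8 had 14 WT and 16 STAG2-KD loops, 9 of them shared. The bin of H2AC13, H2BC13 and H3C10 also had 14 and 16, with 8 shared. H2AC4 and H3C2 had 11 and 10 with 7 shared, H2AC8 had 10 and 11 with 6 shared, and H1-5 had 10 and 8 with 6 shared. In cluster 3 only the bin of H2AC12 and H2BC12 had loops, 9 and 8 with 5 shared. In cluster 4 the bin of H2AC17, H2BC17 and a start of H3C12 had 4 and 5 with 2 shared. The bin of H2BC9 and H3C7 had 9 and 10 with only 3 shared. Each other bin given here with its shared loops, except that of H2AC17, H2BC17 and H3C12, shared at least 5 between the states. In 8 bins loops were listed in STAG2-KD alone, those of H2BC18, H2AC19 and H3C15, H2BC3, H4C4, H4C5, H4C12 and both start bins of H3C6, with 1 to 3 loops each. In 1 bin, that of H1-1, a loop was listed in WT alone. The matching shares over all bins with a protein-coding start were not counted, so whether 8 is unusual cannot be said.

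Contacts of histone gene starts were sorted by what lay at the other anchor. Both anchors held histone starts of the same cluster in 27 WT and 39 STAG2-KD loops, with 16 shared. They held starts of different clusters in 20 WT and 23 STAG2-KD loops, with 10 shared. The other anchor held no histone start in 42 WT and 57 STAG2-KD loops, with 18 shared. Of the loops in 1 list alone, STAG2-KD-only loops made up 67.6% within clusters (49.5 to 82.6), 56.5% between clusters (34.5 to 76.8) and 61.9% to other regions (48.8 to 73.9). These intervals overlapped widely, and no class was distinguishable from the others.

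Within clusters nearly all contacts were in cluster 2, which held 25 WT and 35 STAG2-KD ones, 14 of them shared. They spanned 20 to 220 kb. Cluster 4 had 2 in both lists, which were the same loops, cluster 1 had 0 in WT and 2 in STAG2-KD, and cluster 3, whose bins lie closer together than the shortest listed loop, had none. Of the 274 pairs of histone bins 20 to 300 kb apart, 9.85% were linked in WT (6.59 to 14.01) and 14.2% in STAG2-KD (10.3 to 18.9). Of all pairs of protein-coding start bins at these distances, 0.862% were linked in WT and 0.786% in STAG2-KD. This contrast depended on which bins were anchors at all. Among bins that were anchors in the list, 23.7% of histone pairs were linked in WT (16.2 to 32.6) and 21.8% in STAG2-KD (15.98 to 28.6), against 22.01% and 22.4% of protein-coding pairs. At short range, histone anchors were thus linked to each other about as often as other gene anchors.

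Contacts between clusters spanned 665 to 1825 kb in WT and 665 to 1835 kb in STAG2-KD. Clusters 2 and 4 were joined by 13 WT and 17 STAG2-KD loops with 5 shared. Clusters 2 and 3 were joined by 4 and 3 with 2 shared. Clusters 3 and 4 were joined by the same 3 loops in both lists, from the bin of H2AC12 and H2BC12 to H2AC13, H2BC13 and H3C10 at 665 kb, to H1-5 at 725 kb and to H2AC17, H2BC17 and H3C12 at 750 kb. These were also the 3 shortest contacts between clusters. The longest was from H3C1 and H4C1 to H3C12 at 1835 kb, found in STAG2-KD alone. It was followed by H2AC4 and H3C2 to H3C12 at 1825 kb, found in WT alone, and H2AC4 and H3C2 to H1-5 at 1805 kb, found in both.

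**Figure D4:**
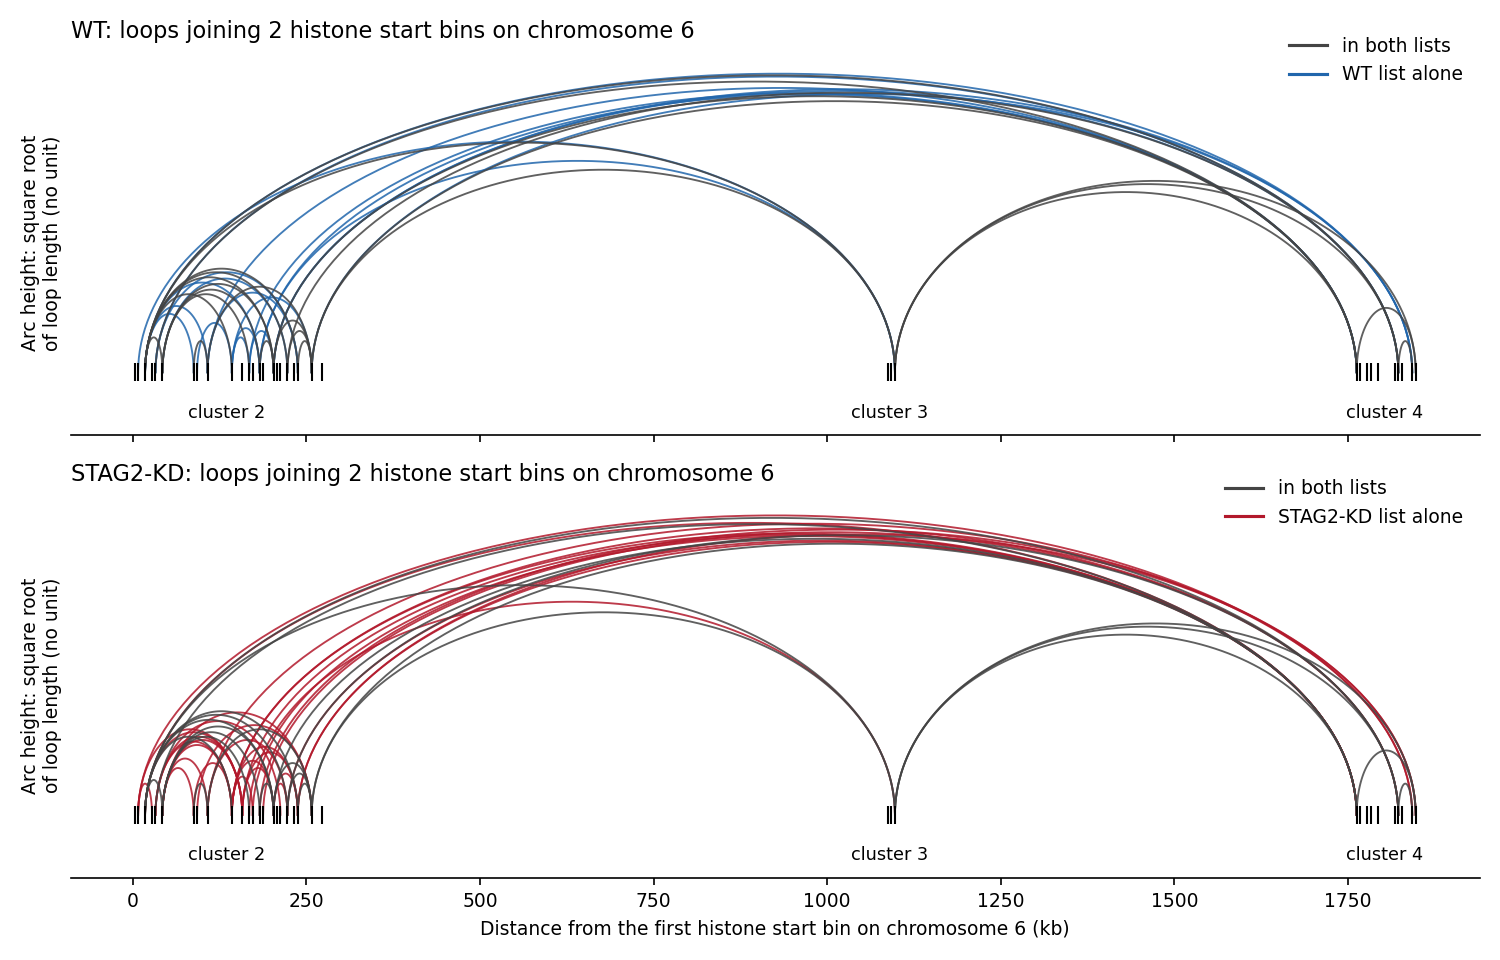
Arcs join histone start bins of chromosome 6 that were linked by a loop, with WT above and STAG2-KD below. The horizontal axis is the distance in kb from the first histone start bin, black ticks are the start bins, grey arcs were in both lists and coloured arcs in 1 list alone. The 20 WT and 23 STAG2-KD arcs between clusters each have an end in cluster 3 or 4, where few bins were anchors.

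These long contacts met at few bins, which the layout in part fixes. Each has an anchor in cluster 3 or 4, where few bins were anchors at all. Cluster 3 had 1 such bin in each list, and cluster 4 had 4 in WT and 5 in STAG2-KD. In WT 17 of the 20 contacts touched the bin of H2AC12 and H2BC12, that of H2AC13, H2BC13 and H3C10, or that of H1-5. So did 19 of the 23 in STAG2-KD and all 10 shared ones. These 3 bins were picked after their values were seen, as the highest of clusters 3 and 4, so high counts were largely fixed. The bin of H2AC13, H2BC13 and H3C10 had 7 contacts with other clusters in WT and 10 in STAG2-KD, 4 of them shared. The bin of H2AC12 and H2BC12 had 7 and 6 with 5 shared, and H1-5 had 5 and 5 with 3 shared. On the side of cluster 2, the bin of H2AC4 and H3C2 had 3 and 3, that of H2BC10 and H3C8 had 3 and 2, and H2AC8 had 3 and 1. Without the bin of H2AC13, H2BC13 and H3C10, 13 contacts between clusters remained in each list. The contacts between clusters used 14 histone bins in WT and 19 in STAG2-KD.

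At this range the histone starts stood further from other genes. Of the 329 pairs of histone bins 500 kb to 2 Mb apart, 6.08% were linked in WT (3.75 to 9.23) and 6.99% in STAG2-KD (4.48 to 10.3). Over all pairs of protein-coding start bins at these distances the shares were 0.00647% and 0.00777%. Among bins that were anchors in the list, 23.8% of histone pairs were linked in WT (15.2 to 34.3) and 18.4% in STAG2-KD (12.04 to 26.3), against 0.205% and 0.276% of protein-coding pairs. For anchor bins the histone share was therefore about as high at long as at short range, whereas anchor pairs other than 2 histone bins were linked in 0.175% of cases in WT and 0.238% in STAG2-KD at long range, and in 22.003% and 22.4% at short range. Restricted to anchor bins, the linked share of histone pairs was higher in WT than in STAG2-KD at both ranges. Over all histone bins the order was the reverse, and the intervals of the lists overlapped each time. Anchor bins were defined in each list by its own loops, so the pairs counted were not the same. At short range 27 of 114 pairs were linked in WT and 39 of 179 in STAG2-KD, and at long range 20 of 84 and 23 of 125. The order among anchor bins thus came with more pairs counted in STAG2-KD, not with fewer linked pairs.

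**Figure D5:**
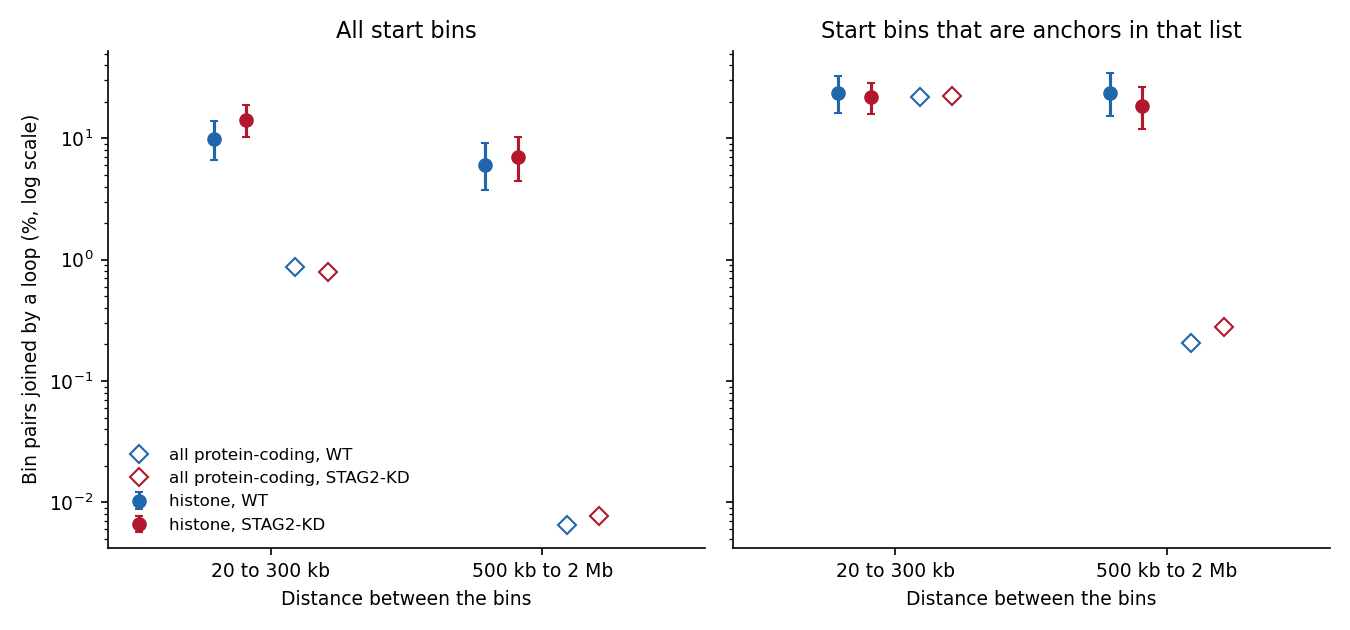
The vertical axis, on a log scale, is the percent of bin pairs joined by a loop, for pairs 20 to 300 kb and 500 kb to 2 Mb apart. Filled circles are histone start bins with exact 95% intervals of counting, and open diamonds are all protein-coding start bins. In the right panel, restricted to bins that are anchors, the 2 sets lie together at short range (23.7% and 22.01% in WT) and apart at long range (23.8% and 0.205% in WT).

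Loops this long were rare in the lists. Of all loops over 1 Mb, 22 of 169 in WT (13.02%, 8.34 to 19.04) and 23 of 194 in STAG2-KD (11.9%, 7.67 to 17.3) had a histone start at an anchor, and over 1500 kb 16 of 50 and 20 of 64 did. Most loops over 1 Mb thus touched no histone start. Of the loops over 1 Mb with protein-coding starts at both anchors, 15 of 23 in WT (65.2%, 42.7 to 83.6) and 18 of 29 in STAG2-KD (62.1%, 42.3 to 79.3) joined 2 histone clusters. Over 1500 kb this held for 13 of 15 and 17 of 19. The window between 26 and 28 Mb of chromosome 6 held 39 WT loops and 46 STAG2-KD loops over 500 kb. Both anchors held histone starts in 20 and 23 of these, 1 anchor in 12 and 14, and neither in 7 and 9. Other gene families in tandem clusters were counted in the same way. The 39 HOX genes, body-plan regulators in 4 clusters, had 31 WT and 39 STAG2-KD loops, and 1.46% and 1.82% of their bin pairs 20 to 300 kb apart were linked. These shares are over all 56 HOX start bins, of which 14 were WT anchors and 15 STAG2-KD anchors, and were not restricted to anchors. HOX bins had 0 pairs 500 kb to 2 Mb apart, so they give no comparison at long range. The 16 S100 genes of chromosome 1, which encode calcium-binding proteins, had 10 and 14 loops, and 249 ZNF genes of chromosome 19, zinc finger regulators, had 105 and 88. Of 7866 ZNF bin pairs 500 kb to 2 Mb apart, 0 were linked in WT and 1 in STAG2-KD, and of 48 such S100 pairs none was linked in either list.

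Followed from bin to bin, the loops joined most chromosome 6 histone starts into 1 network in each state. It held 19 of 36 bins with 30 genes in WT and 24 bins with 34 genes in STAG2-KD, and it included clusters 2, 3 and 4 in both. On chromosome 1 no histone bins were joined in WT, and 3 bins with 6 genes were joined in STAG2-KD.

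Loops from histone starts to other regions reached 35 bins. Of these, 28 held no protein-coding start and 9 lay next to a histone bin. The bin most often reached (chr6:27095001-27100000) covers the body of H2BC11 just beside cluster 3 and had 5 WT and 8 STAG2-KD histone loops with 4 shared. A bin of cluster 4 between the histone starts (chr6:27800001-27805000) had 5 and 6, with 2 shared. The next were a bin of cluster 2 (chr6:26065001-26070000) with 3 and 5, a bin over a long non-coding RNA gene (chr6:26570001-26575000) with 3 and 4, and a bin beside H4C8 (chr6:26290001-26295000) with 3 and 2. Protein-coding starts lay at 7 of the 35 bins, those of HFE, HMGN4, ABT1 and ZKSCAN8 on chromosome 6 and of SF3B4, VPS45 and ANP32E on chromosome 1. They took 5 WT and 10 STAG2-KD loops. The loops to SF3B4, a splicing factor, and VPS45, a vesicle-sorting protein, were in both lists from the bin of H2AC20, H2AC21 and H2BC21.

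The genes that serve histone gene expression elsewhere in the genome were anchors more often than the average gene in both lists, with shifts in both directions. Of 25 autosomal genes for histone transcription and mRNA processing, 19 had a WT loop (76.0%) and 18 a STAG2-KD loop (72.0%), where all protein-coding genes stood at 39.1% and 36.8%. More loops in STAG2-KD were held by 5 of them (against 15.3% of all protein-coding genes) and more in WT by 10 (against 19.4%). NPAT, the organiser of the histone locus body, had 9 WT and 4 STAG2-KD loops. CDK2, the kinase that acts on NPAT with cyclin E, had 7 and 2, and SNRPE, a core protein of spliceosomal particles, had 8 and 1. A start bin may also hold starts of other genes, so these loops need not be particular to the named gene. CDK2 lies within the annotated span of PMEL, a melanocyte marker with 7 and 4 loops. SLBP had 1 WT loop and no STAG2-KD loop. LSM11, a subunit of the U7 particle that cleaves histone pre-mRNA, had 0 and 2. Of 18 annotated histone genes outside the clusters, which include replication-independent variants, none had more loops in STAG2-KD (against 15.3% of all protein-coding genes) and 5 had more in WT (27.8%, against 19.4%). Among them H3-3B, which encodes H3.3, had 6 and 3, and H2AZ2 had 7 in each list. At the clustered histone genes the counts were 30 of 59 and 8 of 59.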

How the data were processed

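Per the labels and the study's methods, the authors cut M14 chromatin with MboI, ligated it, enriched it for H3K27ac, mapped the reads with HiC-Pro on hg19 and called loops with FitHiChIP. The methods state a false discovery rate limit for the loops that entered the study's differential analysis. Whether the deposited lists had passed it, and the tool versions, were not given in the sources used here. The deposited lists hold positions alone (chromosome, start of the left anchor, end of the right anchor), with no count, score or q-value, so a loop missing from a list may lie just short of the caller's limit. The sample descriptions carry the word merged, and whether a list merges both samples of its group was not stated.

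Positions were read as counted from 0 and are printed counted from 1, and anchors were taken as 5 kb wide. A transcript start came from GENCODE release 44 lifted to GRCh37. A shared loop had the same bins at both anchors. Loop length was the distance between anchors. Python 3.11.15, pandas 2.3.3, numpy 2.4.6, scipy 1.17.1 and matplotlib 3.10.9 were used. The counting functions were tested on simulated data and returned all 14 planted values.

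Groups came from the sample titles. Named with values were the 3 bins with most loops in each cluster (ties included), every bin that differed by at least 4 loops, the 3 longest and 3 shortest contacts between clusters and the 5 partner bins with most histone loops. The bins with at least 9 WT loops were named as well. Genes picked as examples outside this rule came from the fixed lists of histone expression genes, histone genes outside the clusters and melanocyte markers. Members, lists and comparisons were chosen with earlier results of these data known. Alternatives were other start definitions, tolerances of 1 and 2 bins, another cluster gap, distance limits, the earlier 50% of each chromosome's lines and leaving out each cluster. Near-identical gene copies share reads, so loops of single members in repeated sequence are uncertain. Histone genes that the annotation does not list as protein-coding on hg19 were not analysed here.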

Additional observations from a re-analysis of the deposited data

How the results depend on the processing

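Over 117 values of 24 results recomputed under the alternatives, 102 stayed near the value reported, which for a share means inside its 95% counting interval and for a count, mean or ratio within 1.5 times, and 15 moved further. Some of the 102 could not move or did not. A cluster gap of 50 kb and pairs 20 to 500 kb apart gave the values reported. Leaving out cluster 1, alone on its chromosome, cannot change contacts between clusters. The number 102 thus overstates how far the results were put to the test. The ratio of STAG2-KD to WT histone loops stayed above 1 in all 7 alternatives (1.15 to 1.44), and the STAG2-KD-only share of loops in 1 list alone stayed above 50% in all 10 (56.8 to 66.3%). With anchors allowed to differ by 2 bins, 68.5% of WT and 53.8% of STAG2-KD histone loops were shared, and in the earlier 50% of lines 62.9% and 48.8% were. Without cluster 2 there were 40 WT and 46 STAG2-KD loops, fewer by construction. Contacts between clusters numbered 5 in each list when loops were limited to 1 Mb, also by construction. When starts within 5 kb of an anchor counted, they numbered 30 in WT and 38 in STAG2-KD, where 20 and 23 were reported. Chosen after the data were seen were the next 2 settings. Without the bin of H2AC13, H2BC13 and H3C10, 13 contacts between clusters were left in WT and 13 in STAG2-KD. Among histone bins that are anchors, linked pairs within clusters made up 23.7% in WT and 21.8% in STAG2-KD, and those between clusters 23.8% and 18.4%. This turned the order of WT and STAG2-KD for both kinds of pair. Anchor bins differ between the lists, so the 2 shares were not taken over the same pairs. No paired analysis was possible because 1 list per group was analysed, and no replicate could be left out for the same reason. Read depth was not in the lists, so what depth limits could not be given.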
